A study of Mus musculus with 38 samples.

Results

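Whole back skin of mice that carry the SRSF2 P95H mutation was compared with control skin at 12 days and at 28 days of treatment, and the difference between those comparisons, the interaction, was taken for every gene. It uses 14 of the 38 libraries of the series, all that belong to the whole-skin P95H set. The 12-day groups hold 5 control and 2 P95H libraries, and the 28-day groups hold 3 control and 4 P95H libraries. All 14 mice were labelled as belonging to the SRSF2 mutant line, as wild type for the tdTomato reporter, and as treated on the back skin every other day with 4-hydroxytamoxifen, the ligand that activates CreER. Controls were Krt14CreER negative and P95H mice Krt14CreER positive, so the recombinase and the mutation cannot be told apart. Krt14 is active in the basal layer of the epidermis and in the hair follicle, so the allele is recombined in keratinocytes, while the RNA came from all cells of the skin. No source used here gives zygosity of the mutation in these mice, age or sex. Libraries of a group were labelled as biological replicates from different mice, and no control was used at both days.

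SRSF2 is a serine- and arginine-rich (SR) splicing factor that binds exonic enhancer sequences through its RNA recognition motif and promotes exon inclusion. The proline changed to histidine lies just after that motif, and the change is known from blood cancers, where it alters which enhancer sequences the protein prefers. The epidermis is renewed by basal keratinocytes that move outward through spinous, granular and cornified layers. After injury or stress its cells switch on Krt6, Krt16, small proline-rich proteins and stefins, and viral or self nucleic acids switch on interferon-stimulated genes in most cell types.

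Levels are given in steps, where 1 step is the smallest positive value of a library's column. Most genes at the low end sit at 1 step, and 12 genes in 28-day control 4 and 3 genes in 12-day P95H replicate 2 are listed at 0. Summed steps came to between 16.1 M and 17.4 M in each library (M, mega). The reads behind them were estimated at between 7.39 M and 32.3 M per library, with a median of 17.8 M. P95H replicate 1 at 28 days had the fewest, 7.39 M, and stood apart on the third principal component, at 50.2 against -25.2 to 8.52 in the other 13 libraries. Control replicates 2 and 5 at 12 days stood apart on the first, at -54.2 and -54.9, against -27.7 to 49.9 in the rest. The skin markers Krt14, Krt5, Krt1 and Krt10 were at 12469 steps or more in every library. Acta1 of skeletal muscle was at 42236 to 86442 steps, so muscle RNA was present. Ly6g of neutrophils was at 5 steps or fewer, but the 4 measured genes of the neutrophil list went another way. Their summed level was 148 to 216 steps in 12-day controls against 359 and 825 in P95H. At 28 days it was 124 to 265 steps in controls against 304 to 632 in P95H. In whole skin, fewer cells of a type and less RNA per cell cannot be told apart.

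Srsf2 (ENSMUSG00000034120.18, chromosome 11, 116849901 to 116853094, minus strand, GRCm38) did not differ beyond the spread between replicates. It was at 3198, 3009, 3674, 3326 and 4094 steps in the 12-day controls and at 3586 and 3618 in the 12-day P95H libraries. Its 28-day levels were 3278, 3232 and 2986 steps in controls and 2597, 3450, 3355 and 3400 in P95H. The interaction was -0.06 on the log2 scale (95% interval -0.41 to 0.29). A point mutation need not change the level of its gene, so these values do not check the genotype labels.

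The P95H effect was largely alike in direction at the 2 days. A gene is called here when its adjusted p in limma is under 0.05 among the 18311 genes tested. At 12 days 1269 genes (6.93%) were called, 726 higher (3.96%) and 543 lower (2.97%) in P95H skin. At 28 days 2226 genes (12.2%) were called, 1227 higher (6.7%) and 999 lower (5.46%). A shared effect, called at both days with the same sign and not in the interaction, was found for 693 genes (3.78%), 388 higher (2.12%) and 305 lower (1.67%). Those 693 genes made up 54.6% of the 12-day calls and 31.1% of the 28-day calls. The interaction itself was called for 2 genes (0.0109%), both higher at 28 days and neither called at 12 days. No gene was called as limited to 12 days, and no gene called in the interaction had opposite effects at the 2 days; 1 gene, Car5b, was called at both days with opposite signs and not in the interaction.

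A call at 1 day alone does not show that the effect is limited to that day. Of the 575 genes called at 12 days alone, 88.7% had the same sign at 28 days, and of the 1532 called at 28 days alone, 91.9% had the same sign at 12 days, against 69.2% of all genes tested. Across the 18311 genes, which are not independent replicates, the effects of the 2 days had a Pearson r of 0.569 and a Spearman rho of 0.500. The interaction had an unadjusted p under 0.05 for 1504 genes (8.21%), 641 higher and 863 lower. Its median standard error was 0.22 on the log2 scale, against 0.16 for the 12-day and 0.15 for the 28-day effect. For 13155 genes (71.8%), and for 535 of the 693 shared genes, the 95% interval of the interaction lay within 1 log2 unit of 0. The 693 shared genes had a median absolute effect of 0.77 at 12 days and 0.69 at 28 days. P95H and control libraries did not overlap for 5082 of the 18311 genes at 12 days and for 5244 at 28 days.

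**Figure D1:**
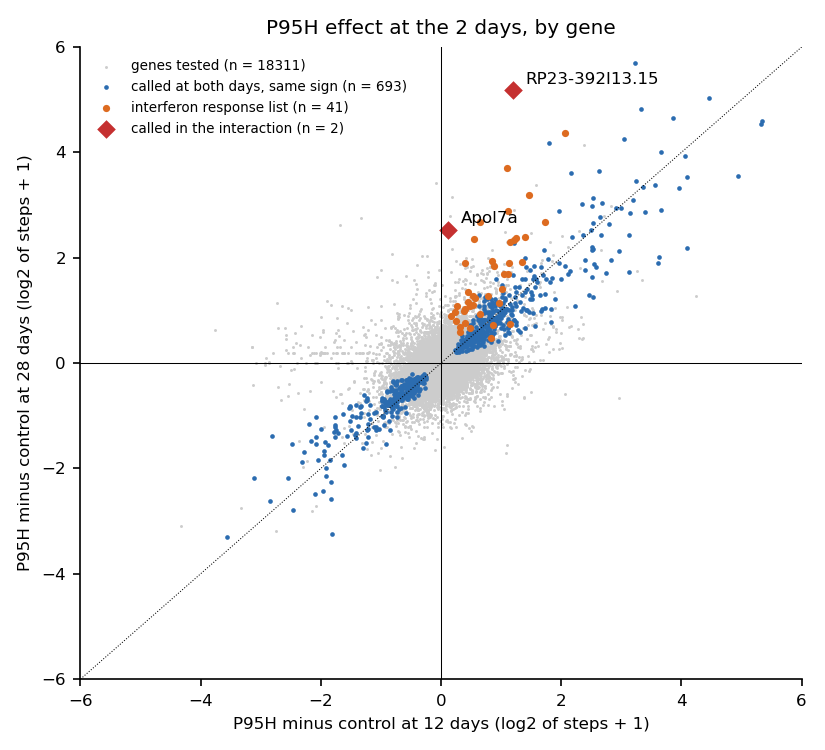
Each point is a gene, with its P95H minus control difference at 12 days on the horizontal axis and at 28 days on the vertical axis, both as log2 of steps + 1; the dotted line marks equal effects. The 693 shared genes lie along that line, the 41 genes of the interferon response list lie mostly above it, and the 2 genes called in the interaction, Apol7a and RP23-392I13.15, lie above it.

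These counts moved with single libraries and with scaling. The 12-day count was 323 without P95H replicate 2 of that day, 779 without P95H replicate 1 and 2366 without the shallow 28-day P95H replicate 1. The 28-day count was 699 without control replicate 4, 1130 without control 1, 1290 without control 2 and 1233 without P95H replicate 2. The shared count was 343 without 28-day control 4 and 175 without 12-day P95H replicate 2. The interaction count was 7 without either 12-day P95H library and 5 without 28-day P95H replicate 1; 11 of the other libraries gave 1 or 2. With the deposited values left unscaled, the median 28-day effect over all genes was 0.59 and the median interaction 0.71, against -0.01 and -0.01 in steps. The calls then split into 97 higher and 111 lower at 12 days and 617 higher and 15 lower at 28 days.

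Apol7a, a member of the apolipoprotein L family of lipid-binding proteins, was higher in P95H skin at 28 days and not at 12 days. The gene (ENSMUSG00000010601.13) lies on chromosome 15, 77388219 to 77399110, minus strand, in GRCm38. It was at 72, 89, 87, 80 and 55 steps in the 12-day controls and at 80 and 84 in the 12-day P95H libraries, inside the control range. Later, at 28 days, it was at 47, 42 and 59 steps in controls and at 357, 275, 238 and 293 in P95H, with no overlap at that day. Means were 76.6 ± 13.8 (SD, n = 5) against 82 ± 2.83 (n = 2), and then 49.3 ± 8.74 (n = 3) against 291 ± 49.7 (n = 4). The difference was 0.12 ± 0.20 (SE) at 12 days and 2.53 ± 0.18 at 28 days, a 5.79-fold rise on the log2(steps + 1) scale. The interaction was 2.42 (95% interval 1.84 to 2.99, limma adjusted p = 0.00528). It was called without each of the 14 libraries in turn. Between the days the P95H level differed by 1.80 and the control level by -0.62 on the log2 scale, so both arms entered the interaction. Apol7a has close copies in the same cluster, among which reads could have been divided, so its level is uncertain.

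Other members of the apolipoprotein L family were measured for comparison and were chosen after the values of Apol7a were seen. Apol9a (chromosome 15, 77403789 to 77411135, minus strand) rose at both days, by 1.80 at 12 days and 4.17 at 28 days, and its interaction of 2.37 was not called (adjusted p = 0.31). Its near-identical copy Apol9b rose by 3.37 at 28 days and was 1.58 higher, uncalled, at 12 days. Apol7c was higher by 1.10 at 12 days and 0.78 at 28 days, both called, with an interaction of -0.33. Apol6 was called at neither day.

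RP23-392I13.15 (ENSMUSG00000111713.1, chromosome 11, 83065752 to 83071246, minus strand, GRCm38) was the other gene called; it falls outside the naming rule and was named after its values were seen. It overlaps Slfn2, a schlafen gene of the interferon response, on the opposite strand (83065112 to 83070678, plus strand). It was at 7, 10, 6, 5 and 7 steps in the 12-day controls and at 13 and 22 in P95H. At 28 days it was at 2, 6 and 3 steps in controls, near the floor, and at 318, 108, 119 and 152 in P95H. The P95H libraries lay above the controls at both days. The interaction was 3.99 (95% interval 2.77 to 5.20, adjusted p = 0.0486), and the call held in 7 of 25 alternatives and without only 3 of the 14 libraries in turn, with adjusted p from 3.50e-06 to 0.205. Slfn2 itself rose by 1.03 at 12 days and 1.04 at 28 days, with an interaction of 0.01 (95% interval -0.79 to 0.80). The kit marks strand, but no source used here gives the strand setting of the counting, so reads of the antisense gene and of Slfn2 cannot be told apart with certainty.

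**Figure D2:**
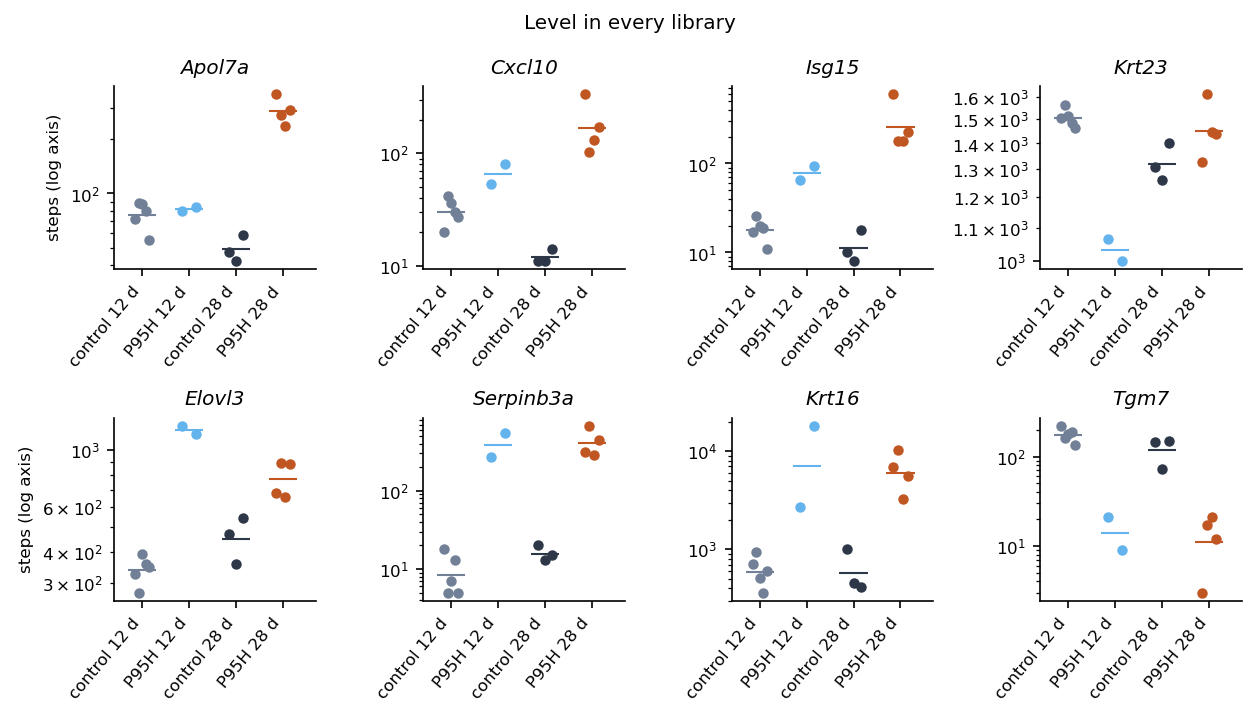
Level of 8 genes in every library, in steps on a log axis; each point is a library and each bar the mean of log2(steps + 1) of its group, set back to steps. Apol7a stands high only in the 4 P95H libraries of 28 days, Cxcl10 and Isg15 are highest there with replicate 1 on top, Krt23 is low in the 2 P95H libraries of 12 days, Elovl3 is highest in those 2, and Serpinb3a, Krt16 and Tgm7 differ from controls at both days.

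Among the remaining genes, the 4 further positive interactions with the smallest p, given as values and not as calls, were Krt23, Alox15, Cxcl10 and Orai2. Krt23, an epithelial keratin, was at 1507, 1564, 1515, 1486 and 1464 steps in 12-day controls and at 1063 and 999 in P95H, a fall of 0.55 on the log2 scale (adjusted p = 9.77e-04). The 28-day levels were 1309, 1259 and 1400 steps in controls and 1326, 1612, 1448 and 1440 in P95H, which overlap. Its interaction was 0.68 (95% interval 0.46 to 0.91, adjusted p = 0.0717), and limma called it without 28-day P95H replicate 1 (0.73, adjusted p = 0.0137). Alox15, a lipoxygenase that oxidises polyunsaturated fatty acids, was at 28 to 47 steps in the 12-day controls and at 58 and 30 in P95H. In the 28-day groups it was at 25 to 43 steps in controls and at 151, 178, 126 and 166 in P95H, a rise of 2.17 (adjusted p = 2.31e-04), with an interaction of 1.99 (adjusted p = 0.279). Orai2, a subunit of store-operated calcium channels, rose by 1.03 at 28 days and was 0.33 higher, uncalled, at 12 days, with an interaction of 0.71 (adjusted p = 0.279).

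The 5 negative interactions with the smallest p were Car5b, Pam, Lum, Mmrn1 and Lipa, each at an adjusted p of 0.279; those of Pam and Lipa were 0.09 and 0.11 with the values left unscaled. Car5b, a mitochondrial carbonic anhydrase, was the only gene called at both days with opposite signs. It was at 295, 283, 259, 235 and 182 steps in 12-day controls against 429 and 338 in P95H, and at 343, 371 and 402 in 28-day controls against 275, 261, 260 and 267. The groups did not overlap at either day, with a difference of 0.62 and then -0.48, and an interaction of -1.10 (95% interval -1.56 to -0.65). Over 25 alternatives of processing and libraries the Car5b interaction ran from -1.27 to -0.39 and was called in 1. Lum, the collagen-binding proteoglycan lumican, rose by 0.87 at 12 days and was 0.22 lower, uncalled, at 28 days. Mmrn1, a multimerin of lymphatic endothelium, rose by 1.02 at 12 days and was 0.80 lower, uncalled, at 28 days. Pam, an enzyme that amidates peptides, rose by 0.42 at 12 days and was 0.21 lower, uncalled, at 28 days. Lipa, the lysosomal acid lipase, was 0.29 higher, uncalled, at 12 days and fell by 0.32 at 28 days.

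The shared rises were led by genes of stressed and wounded epidermis. Serpinb3a, a protease inhibitor of squamous epithelia, was at 18, 5, 7, 13 and 5 steps in 12-day controls and at 269 and 547 in P95H. At 28 days it was at 20, 13 and 15 steps in controls and at 311, 676, 285 and 446 in P95H. It rose by 5.34 ± 0.45 (SE) at 12 days and 4.60 ± 0.41 at 28 days, with an interaction of -0.75 (95% interval -2.06 to 0.57). Krt16, a keratin of activated keratinocytes, was at 363 to 943 steps in 12-day controls and at 2712 and 18101 in P95H, and at 414 to 1019 in 28-day controls and 3248 to 10383 in P95H. It rose by 3.56 and 3.38. The 2 P95H libraries of 12 days differed widely in it, and without replicate 2 the 12-day rise was 2.19 and not called (adjusted p = 0.0718).

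The other shared rises named by rule were Krt6b, a partner of Krt16 (5.32 at 12 days, 4.54 at 28 days), Stfa2, a stefin that inhibits cysteine proteases (4.47 and 5.03), Gsdmc, a pore-forming gasdermin (3.66 and 4.00), and the cornified envelope precursors Sprr2a3 (3.33 and 4.83) and Sprr1b (3.97 and 3.32). Reads of Stfa2, Gsdmc and Sprr2a3 could have been divided among near-identical copies. The eighth, the chitinase-like Chil4, was at 1 step in all 5 controls of 12 days and at 8 and 38 in P95H, and at 13, 1 and 1 step in 28-day controls against 60, 713, 112 and 308. Without 12-day P95H replicate 2 the 12-day calls of Krt6b, Stfa2, Gsdmc, Sprr2a3 and Sprr1b were also lost, with differences of 3.60, 3.42, 2.67, 2.41 and 2.96. The 12-day call of Chil4 was lost without any of 7 of the 14 libraries.

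The wound and stress keratinocyte list had 36 measured genes, of which 15 rose at 12 days and 21 at 28 days, 13 at both, and none fell. Of all genes tested 3.96% rose at 12 days and 6.7% at 28 days. The list had a median difference of 1.89 and 1.82, against -0.00 and -0.01 over all genes. Its median interaction was -0.11 (0.56 with the values left unscaled, -0.88 without 12-day P95H replicate 1 and 0.69 without replicate 2), with no gene called and 4 of 36 at an unadjusted p under 0.05, all lower: Tslp, Lcn2, Stfa1 and Il1b. Tslp, an epithelial cytokine that acts on dendritic cells, was at 30 to 55 steps in 12-day controls and at 101 and 131 in P95H, and at 30 to 52 against 35 to 58 at 28 days, where the groups overlap. The count at 12 days was 3 without P95H replicate 2 of that day, and the count at 28 days was 11 without control replicate 4 and 12 without P95H replicate 2. Krt14, the basal keratin, rose by 0.93 and 0.78, and Krt1, a suprabasal keratin, by 1.36 and 1.04. Krt10 was called at neither day, and Krt5 and Krt17 rose at 28 days, by 0.37 and 1.20. With the values left unscaled the 12-day calls of Krt14 and Krt1 and the 28-day call of Krt5 were lost, at 0.83, 1.26 and 0.99. Krt6a rose by 1.93 at 28 days and was 1.92 higher, uncalled (adjusted p = 0.0553), at 12 days, with an interaction of 0.01. Its 12-day difference was called without control 2 (2.13) or P95H replicate 1 (3.16) of that day, and without P95H replicate 1 or 2 of 28 days (1.92). The 12-day calls of Krt14 and Krt1 were lost without P95H replicate 2 of that day, at 0.55 and 0.85. Without 28-day control 4 the 28-day calls of Krt14, Krt1, Krt5 and Krt6a were lost, at 0.72, 1.05, 0.40 and 1.69. The call of Krt1 was also lost without 28-day control 1 (0.91), that of Krt6a without control 2 (1.93) or P95H replicate 2 (1.60), and that of Krt5 without any of 7 libraries.

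The shared falls included a transglutaminase, cytokine receptors and a Wnt amplifier. Tgm7, a transglutaminase, was at 221, 161, 180, 187 and 136 steps in 12-day controls and at 21 and 9 in P95H, and at 146, 73 and 151 in 28-day controls against 3, 17, 21 and 12. It fell by 3.57 and by 3.30. Its groups did not overlap at either day, which the naming rule for shared genes required. Il20ra, a receptor chain for interleukin-20 family cytokines, fell by 2.29 and by 1.68, and Il22ra2, a soluble decoy receptor of interleukin-22, fell by 2.04 and by 1.83. Rspo3, a secreted amplifier of Wnt signalling, fell by 1.85 and by 1.83. The alcohol dehydrogenases Adh6a (-1.83 and -2.58) and Adh6b (-1.81 and -3.24), the receptor Mrgprb3 (-2.10 and -2.49) and the angiopoietin-like Angptl7 (-1.65 and -1.74) completed the named falls. Without 12-day P95H replicate 2 the 12-day calls of Mrgprb3, Il22ra2, Adh6a and Angptl7 were lost, at -1.10, -1.09, -1.51 and -1.55, and that of Adh6b was lost without replicate 1, at -1.28. The 28-day call of Il22ra2 was lost without control 4 (-1.53). With the values left unscaled the 28-day calls of Il22ra2, Rspo3, Il20ra and Angptl7 were lost, at -1.23, -1.23, -1.07 and -1.13.

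Among 38 measured p53 target genes, 16 rose at 12 days and 15 at 28 days, 13 at both; none fell at 12 days and 2, Ddb2 and Rrm2b, fell at 28 days. The median difference was 0.41 and 0.36 and the median interaction -0.03 (0.68 with the values left unscaled). In that unscaled setting 0 genes of the list rose at 12 days and 8 at 28 days, so the shared rises were not called there. Cdkn1a, the cell cycle inhibitor p21, was at 2585 to 3560 steps in 12-day controls against 4336 and 4684, and at 2407 to 2858 in 28-day controls against 4025 to 5768, a rise of 0.66 and 0.82. Its 12-day call was lost with the values left unscaled (0.56). Pmaip1 and Tnfrsf10b, which promote cell death, rose by 1.51 and 1.14 at 12 days and by 1.22 and 1.01 at 28 days. Trp53 differed by -0.00 and 0.10 and Mdm2 by 0.34 and 0.19, all uncalled; Mdm2 was called at both days without 28-day P95H replicate 1 (0.34 and 0.29). The 12-day count was 7 without P95H replicate 1 and 4 without replicate 2, where Cdkn1a lost its call (0.61). The count of falls was 0 without 28-day control 1, control 4 or P95H replicate 2. Of 58 mitosis genes none was called at 12 days and 3 rose at 28 days, Ube2c, Cdc20 and Kif4, near the share of all genes that rose then (6.7%); Mki67, the proliferation marker, was 0.27 and 0.29 higher, uncalled. The 28-day count ranged from 0, without 28-day control 4, to 9, without 12-day control 1, and 2 rose at 12 days without control 5. Of 18 SR protein and kinase genes Srpk1 rose at both days (0.34 and 0.51) and Srpk2 fell at 28 days (-0.30), with a median interaction of 0.01. These counts of 1 gene are near the shares of all genes, 3.96% higher at 12 days, and 6.7% higher and 5.46% lower at 28 days. The 12-day rise of Srpk1 was lost without any of 9 libraries, and the fall of Srpk2 without 28-day control 1, 2 or 4 or P95H replicate 2.

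Interferon-stimulated genes were higher in P95H skin at both days, with more of them called at 28 days; the difference between such counts was tested neither here nor for the lists that follow. Of the 41 genes on this list, 6 rose at 12 days and 36 at 28 days, 5 at both, and none fell; the background shares are those given above. All 41 had a positive difference at both days, with a median of 0.79 and then 1.28. The median interaction was 0.70, 38 of 41 were above 0 and 20 had an unadjusted p under 0.05, all higher at 28 days. None passed the adjusted threshold, the smallest adjusted p being 0.279 for Cxcl10. Control skin differed between the days by a median of -0.34 on the list and P95H skin by 0.48, so both arms entered the interaction.

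Isg15, a ubiquitin-like protein, was at 17, 26, 20, 19 and 11 steps in 12-day controls and at 65 and 94 in P95H. In the 28-day groups it was at 10, 8 and 18 steps in controls and at 598, 177, 177 and 223 in P95H, with no overlap at either day. It rose by 2.06 ± 0.44 (SE) and 4.37 ± 0.40, with an interaction of 2.31 (95% interval 1.04 to 3.58, adjusted p = 0.361). Cxcl10, a chemokine that attracts T cells, was at 20, 42, 36, 30 and 27 steps in 12-day controls and at 53 and 81 in P95H. At 28 days it was at 11, 11 and 14 steps in controls and at 336, 103, 132 and 173 in P95H. It rose by 3.71 at 28 days and was 1.10 higher, uncalled (adjusted p = 0.0929), at 12 days, with an interaction of 2.61 (95% interval 1.53 to 3.68). Oas1g, an oligoadenylate synthetase with near-identical copies, rose by 2.89 at 28 days and was 1.12 higher, uncalled, at 12 days. Irf9, a transcription factor of the interferon response, rose by 0.47 and 1.07, with an interaction of 0.60 (adjusted p = 0.381). Ifit2 was the only list gene called at 12 days alone (0.83, against 0.47 at 28 days).

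P95H replicate 1 of 28 days, the library with the fewest reads, had the highest level of its group for 40 of the 41 interferon genes, against 7186 of all 18311 genes. Without it 24 list genes rose at 12 days, 35 at 28 days and 22 at both, and the median interaction was 0.47, with 18 genes at an unadjusted p under 0.05 and none called. Without 12-day P95H replicate 2 no list gene rose at 12 days and 36 rose at 28 days. With the values left unscaled, where all genes shift, the median interaction was 1.41 and 5 of the 41 were called. The part of replicate 1 in the difference between the days was not tested.

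Because interferon genes moved together, the 250 bases before the RefSeq start site were searched on both strands for GAAA, any 2 bases and GAAA again, the core of the interferon-stimulated response element. Of 31 list genes with a window, 16 held it (51.6%), against 390 of 11890 tested genes with a window (3.28%). Of the 16 list genes with both a window and an unadjusted interaction p under 0.05, 8 held it. The windows of Isg15 and Cxcl10, which carried large interactions on the list, and of Apol7a, which was called, are shown from 5′ to 3′ with matches in capitals. They lie at chr4:156200819-156201068, chr5:92348890-92349139 and chr15:77399111-77399360 of GRCm38.p6, all on the minus strand.
Isg15: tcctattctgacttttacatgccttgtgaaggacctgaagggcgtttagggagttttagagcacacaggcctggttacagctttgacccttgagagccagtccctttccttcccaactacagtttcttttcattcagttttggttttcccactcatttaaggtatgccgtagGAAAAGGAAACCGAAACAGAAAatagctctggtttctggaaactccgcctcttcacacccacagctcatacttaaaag
Cxcl10: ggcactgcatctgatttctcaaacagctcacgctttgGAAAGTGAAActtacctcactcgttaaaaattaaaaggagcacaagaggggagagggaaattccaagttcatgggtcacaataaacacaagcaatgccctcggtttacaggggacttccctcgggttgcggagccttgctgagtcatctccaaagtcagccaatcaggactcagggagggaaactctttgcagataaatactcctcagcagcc
Apol7a: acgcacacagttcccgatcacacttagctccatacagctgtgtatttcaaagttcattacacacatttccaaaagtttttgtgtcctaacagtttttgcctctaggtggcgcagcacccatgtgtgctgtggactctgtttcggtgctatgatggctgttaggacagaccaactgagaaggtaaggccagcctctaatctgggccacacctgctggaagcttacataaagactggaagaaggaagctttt
The Isg15 window held 3 overlapping matches, the Cxcl10 window 1 and the Apol7a window none. A match describes the letters of a window and is neither a shown binding site nor a cause. The same windows were searched for TGANTCA, a loose form of the AP-1 site that leaves its middle base open (N is any base). This pattern reads the same on both strands. It was found in 8 of 26 windows of the wound and stress list (30.8%), 27 of 282 of the shared rises (9.57%) and 12 of 213 of the shared falls (5.63%), against 751 of 11890 (6.32%). The interferon list held it in 8 of 31 windows (25.8%), so a high share was not particular to the wound and stress list. A shared rise with a match to this loose form, TGAATCA, is Sprr1b, at chr3:92438780-92439029, minus strand.
Sprr1b: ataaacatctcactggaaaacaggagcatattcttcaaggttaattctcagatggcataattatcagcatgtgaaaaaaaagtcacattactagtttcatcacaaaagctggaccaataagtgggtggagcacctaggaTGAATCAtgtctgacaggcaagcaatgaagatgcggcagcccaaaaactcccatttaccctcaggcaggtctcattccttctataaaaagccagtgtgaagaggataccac

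**Figure D3:**
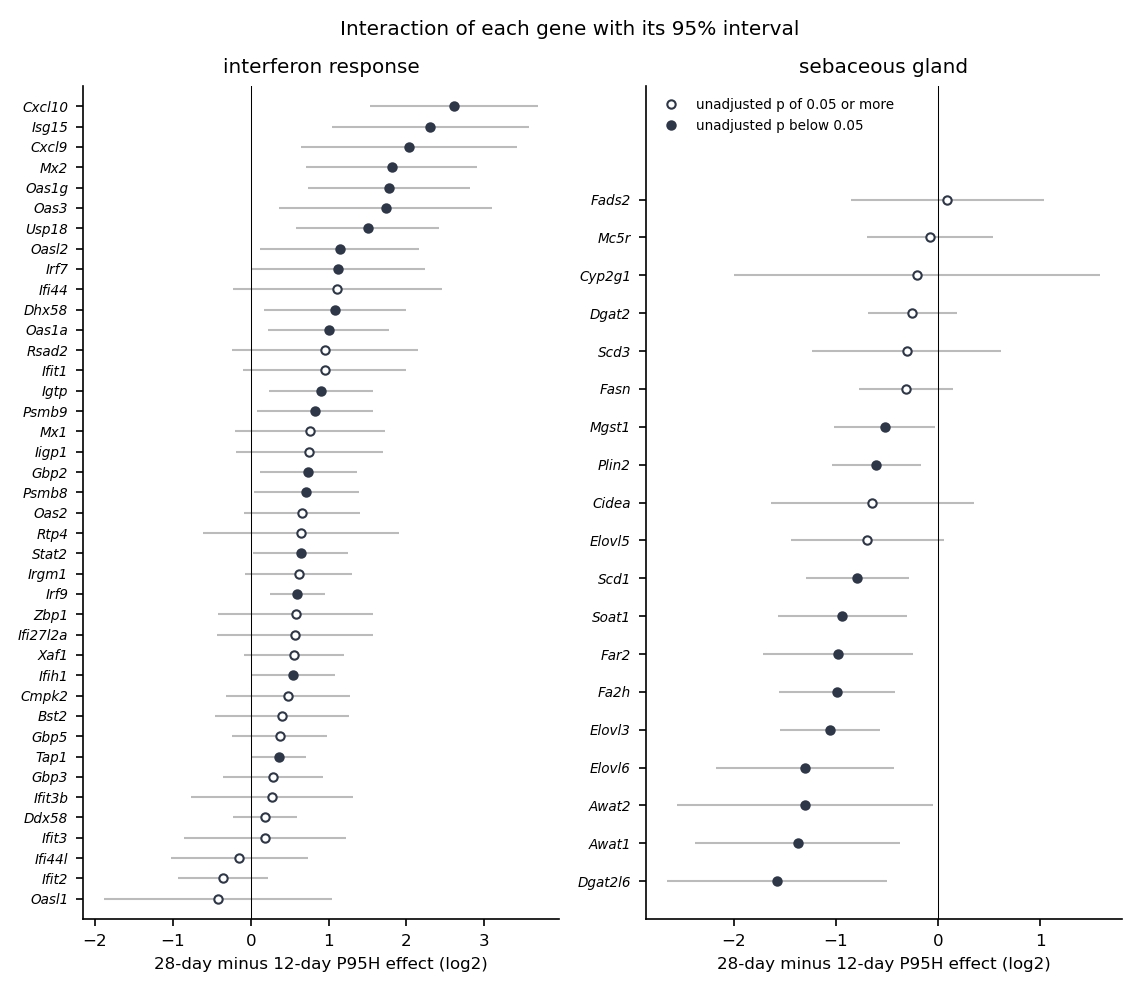
Interaction (28-day minus 12-day P95H effect, log2) of measured genes of the interferon response list (left, 40 of 41 genes) and the sebaceous gland list (right, 19 genes), with its 95% interval; filled points have an unadjusted p under 0.05. In the left panel 37 points lie above 0 and in the right panel 18 lie below it, and no gene of either list passed the adjusted threshold.

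Genes of the cornified layer had more calls at 28 days. Of 32 measured, 10 rose and 2 fell at 12 days, against 3.96% and 2.97% of all genes tested. At 28 days 22 rose and 1 fell, against 6.7% and 5.46%, and 10 rises and 1 fall were shared. The median interaction was 0.29 (-0.08 without 12-day P95H replicate 1, 0.70 without replicate 2 and 1.01 with the values left unscaled, where 1 gene was called), with no gene called and 4 at an unadjusted p under 0.05: Ivl, Flg2, Lce1m and Crct1. Ivl, the envelope protein involucrin, was at 480 to 686 steps in 12-day controls against 677 and 900, and at 520 to 557 in 28-day controls against 1067 to 1448. It rose by 1.16 at 28 days and was 0.45 higher, uncalled, at 12 days. Flg2, a filaggrin-like protein, fell by 0.93 at 12 days and was 0.26 lower, uncalled, at 28 days, while Flg rose by 2.52 and 2.98. The 28-day count was 11 without control 4 and 14 without control 2 or without P95H replicate 2, and the 12-day count 3 without P95H replicate 2.

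Sebaceous gland genes had more calls at 12 days. Skeletal muscle genes lay lower in the same skin: their summed level was 736932 and 717221 steps in 12-day P95H against 907851 to 1085839 in controls, and 662609 to 872276 against 880462 to 1027494 at 28 days. The median over 24 muscle genes was -0.50 at 12 days and -0.22 at 28 days, and its part in the results of the gland, lipid and dermal lists was not tested. Of 19 gland genes measured, 11 rose at 12 days and 1, Elovl3, at 28 days, against 3.96% and 6.7% of all genes tested. The median difference was 1.04 and then 0.23, and the median interaction -0.69 (0.03 with the values left unscaled), with 11 genes at an unadjusted p under 0.05, all lower, and none called. With the values left unscaled 3 gland genes rose at 12 days and 2 at 28 days. Elovl3, a fatty acid elongase of the gland, was at 328, 276, 390, 357 and 349 steps in 12-day controls and at 1247 and 1160 in P95H. The 28-day levels were 469, 357 and 543 steps in controls and 677, 891, 656 and 887 in P95H, so the groups did not overlap at either day. It rose by 1.83 and 0.77, with an interaction of -1.05 (95% interval -1.54 to -0.57, adjusted p = 0.279). Elovl6, Fa2h and Scd1, enzymes of fatty acid elongation, hydroxylation and desaturation, rose at 12 days by 1.53, 1.31 and 0.91 and were 0.23, 0.32 and 0.12 higher, uncalled, at 28 days. On the list the controls differed between the days by a median of 0.49 and P95H skin by -0.27. Without 12-day P95H replicate 1 the 12-day count was 4.

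Cholesterol and fatty acid synthesis genes had a like order of calls. Of 25, 12 rose at 12 days and 2 at 28 days, against 3.96% and 6.7% of all genes tested. Cyp51, an enzyme of cholesterol synthesis, rose at both, by 0.60 and 0.31. The median interaction was -0.18 (0.53 with the values left unscaled), with 7 genes at an unadjusted p under 0.05, all lower, and none called. With the values left unscaled no gene of this list rose at either day. The 12-day count was 5 without P95H replicate 1 of that day, and the 28-day count, Cyp51 included, was 0 without 28-day control 2 or 4 or P95H replicate 2 or 4.

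Several lists of dermal and immune cell markers had more calls at 12 days, and others did not: of 11 Langerhans cell and MHC class II genes 2 rose at 12 days and 5 at 28 days, and of 19 T cell genes 2 rose and 3 fell at 12 days and 3 rose and 1 fell at 28 days. Of 10 mast cell genes 4 rose and 1 fell at 12 days and none was called at 28 days, with a median interaction of -0.80. Mcpt4, a mast cell protease, was at 162 to 269 steps in 12-day controls and at 388 and 339 in P95H, and at 282 to 320 against 230 to 334 at 28 days, where the groups overlap. It rose by 0.84 at 12 days, and its interaction was -0.94 (adjusted p = 0.369). Cma1 and Cpa3, which are mast cell proteases too, rose by 0.89 and 0.67 at 12 days. Of 26 macrophage and dendritic cell genes 5 rose at 12 days and 1 at 28 days, with a median interaction of -0.34; Cd14, a receptor for bacterial lipopolysaccharide, rose by 1.52 at 12 days and was 0.33 higher, uncalled, at 28 days. Of 27 fibroblast and matrix genes 4 rose at 12 days and none was called at 28 days, with a median interaction of -0.42. Of 17 endothelial genes 1 rose at 12 days and 1 fell at 28 days, with a median interaction of -0.31 and all 17 below 0. The gene that rose was Flt4, the receptor of lymphatic endothelium, by 0.75 at 12 days. Of all genes tested 3.96% rose and 2.97% fell at 12 days, and 6.7% rose and 5.46% fell at 28 days. The endothelial counts were near these shares. With the values left unscaled the last 3 medians were 0.38, 0.30 and 0.40 and that of mast cells -0.09. No mast cell, macrophage, fibroblast or endothelial list gene rose at either day in that setting, so the larger number of rises at 12 days was absent there. None of these lists had a gene called in the interaction.

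These short lists moved with single libraries. The macrophage median was -0.15 and -0.54 without 12-day P95H replicate 1 and 2, and -0.50 and -0.18 without 28-day control 1 and 4; the fibroblast median was -0.27 without 12-day P95H replicate 2. The endothelial rise was lost without any of 9 libraries. Without P95H replicate 1 of 28 days, 9 macrophage and 9 fibroblast genes rose at 12 days. Without 12-day P95H replicate 1 or 2 the macrophage count was 1, the fibroblast count was 2 and 1, and the mast cell count was 1 and 0. Without 12-day control 1, 3 or 28-day control 4 the fibroblast count was 2, 1 and 2. Without 12-day control 3, 4 or 5 the mast cell count was 1, 2 and 2, and it was 2 without 28-day control 2 or without 28-day P95H replicate 2 or 4.

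Hair genes had the largest median interactions among the lists with 5 or more measured genes, and 2 control libraries stood far above the others in them. The keratin-associated proteins, which fill the hair shaft, had 45 measured genes with a median of -1.97 at 12 days, 0.19 at 28 days and 2.20 in the interaction. Their summed level was 1495, 20320, 193, 837 and 11655 steps in the 12-day controls and 118 and 1542 in the 12-day P95H libraries. It was 140, 158 and 95 steps in the 28-day controls and 157, 118, 123 and 110 in P95H. Controls 2 and 5 of 12 days were far above all other libraries, and the P95H values lay on both sides of the other 12-day controls. No gene was called in the interaction, 1 (Krtap12-1) fell at 12 days, and none had an unadjusted interaction p under 0.05. That last count was 21 without 12-day control 3 and 12 without 12-day P95H replicate 2. With the values left unscaled, 21 fell at 12 days, 42 had an unadjusted interaction p under 0.05 and 12 were called in the interaction. Without both controls the median interaction was 0.44. The hair shaft keratins and inner root sheath, 35 genes, had a median interaction of 2.18, and 0.58 without both controls, with 2 genes at an unadjusted p under 0.05 (18 without 12-day control 3, 16 without P95H replicate 2) and none called (18 with the values left unscaled); Gata3, a regulator of the inner root sheath, fell by 0.75 and by 0.40. In both lists the median was 0.59 and 0.51 without 12-day P95H replicate 1 and 3.87 and 3.84 without replicate 2. Melanocyte genes, 11 measured, had a median interaction of 1.01 (0.72 without both controls, 0.50 without 12-day P95H replicate 1, 1.47 without replicate 2 and 1.67 with the values left unscaled), with no gene called in it. Over the 7 of them with a mean of at least 50 steps the median interaction was 0.11, so it leaned on genes of low level. Dct, a pigment enzyme, was at 284 to 744 steps in 12-day controls, highest in replicate 5.

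**Figure D4:**
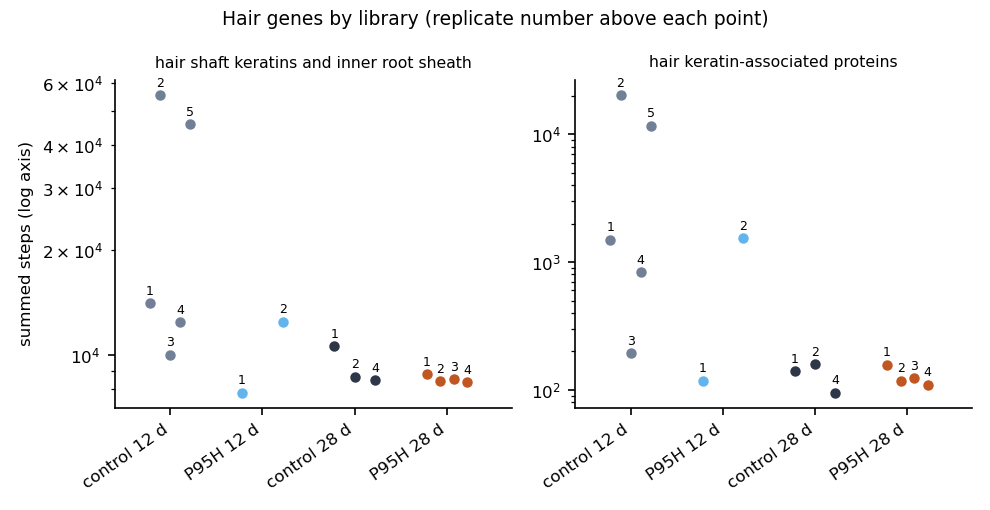
Summed steps (log axis) of the measured genes of 2 hair lists in every library, by group, with the replicate number above each point. Control replicates 2 and 5 of 12 days reach 20320 and 11655 steps in the right panel, and all 28-day libraries lie between 95 and 158 steps.

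**Figure D5:**
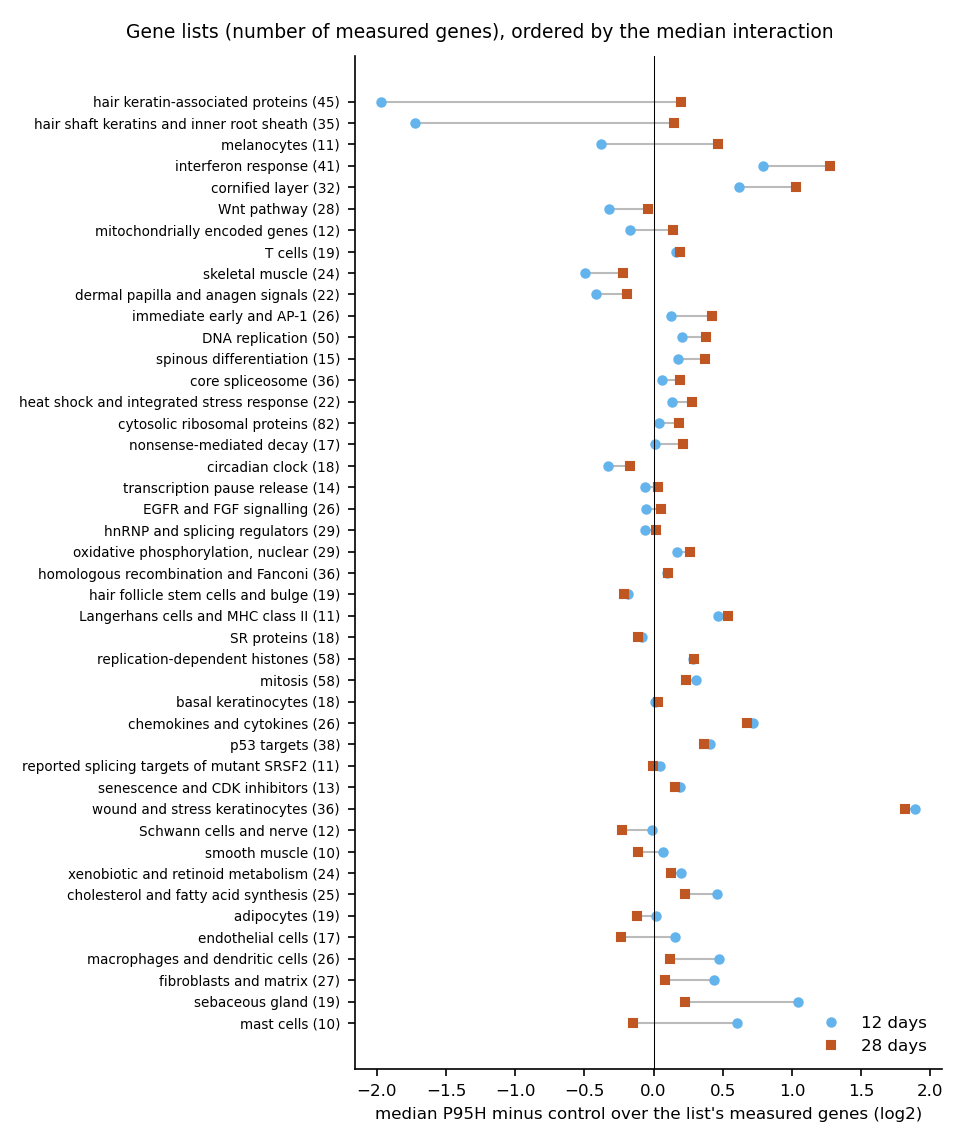
Median P95H minus control difference (log2) over the measured genes of each list with 5 or more of them, at 12 days (circles) and 28 days (squares), ordered by the median interaction; the number of genes is in brackets. The hair lists and the melanocyte list are at one end, the mast cell and sebaceous gland lists at the other, and the wound and stress list has about the same median at both, 1.89 and 1.82.

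Genes shared by both days were also looked up in an independent set from the same series: reporter-positive cells sorted from back skin of heterozygous P95H mice and controls, 3 libraries each, labelled 20 weeks and treated with tamoxifen injections and with DMBA and TPA, which together induce skin tumours. In that set limma called 0 of 14914 genes, with 2376 at an unadjusted p under 0.05, and edgeR called 1; without P95H library 1 limma called 114, without library 3 it called 4 and without control library 3 it called 2. Of 261 shared falls measured there, 182 (69.7%) were lower in the sorted P95H cells, and of 341 shared rises 167 (49.0%) were higher, against 48.8% of all genes with the sign of their 28-day effect. Serpinb3a was at -1.05 there, Krt16 at -0.43, Rspo3 at -0.69 and Tgm7 at -0.69 on the log2 scale, none called. Of 31 measured interferon genes 7 had the sign of their 28-day effect. The same held for 11 of 33 wound and stress genes, 6 of 21 cornified layer genes and 8 of 17 sebaceous gland genes. Among genes called at 12 days alone the share was 54.2%, and among those called at 28 days alone 44.5%. Apol7a was at -0.77, uncalled.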

How the data were processed

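Per the labels' protocols, RNA was extracted with Trizol and made into stranded libraries after ribosomal RNA was depleted (Ribo-Zero Plus). STAR, featureCounts and DESeq2 are named in the submitters' processing notes; no source used here gives versions, roles or the build. The authors deposited normalised values whose unit is treated as a signal: in each library they are whole multiples of 1 smallest value. Every value was divided by it, rounded and taken as log2(steps + 1). The 18311 genes with a mean of 10 steps or more, of 49585, entered limma 3.58.1 (R 4.3.3) with a mean-variance trend, 1 coefficient per group and two-sided tests adjusted by Benjamini and Hochberg over all genes. In the sorted set the deposited signal gave whole reads for 100% of values (within 1e-04), 11.0 M to 17.2 M per library, also tested with edgeR 4.0.16 quasi-likelihood.

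The comparison and the lists were chosen with earlier results of these data known. Named genes were Srsf2, keratins and p53 genes, the largest called interactions with a mean of 50 or more (where fewer than 5 passed, the 5 of smallest p of that sign), 8 shared rises and falls by the smaller effect, and up to 4 of smallest interaction p on each list described. Shared genes were named only where P95H and control libraries did not overlap at either day. Lists carry no test of their own. Of the 18311 IDs, 18263 matched GENCODE M21 (GRCm38), which gave coordinates; promoter windows are from RefSeq. No 2 libraries of a group agreed within sampling noise. Alternatives covered scaling, pseudocount, filters, weights, the trend, the replicate block, the choice of controls and each library left out. The scripts were tested on simulated data. Knockout libraries were not used, and single values of some list genes are not reported here.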

Additional observations from a re-analysis of the deposited data

Results flagged for a closer look

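The interaction of 2 genes passed the test of a difference between days: Apol7a, at 2.42 (adjusted p = 0.00528), and RP23-392I13.15, at 3.99 (adjusted p = 0.0486), both from limma.

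Among 38 named genes, 6 of 76 groups of 4 or 5 libraries held a library set apart from the others of its group; chance flags about 1 in 20 groups. Of these, 4 concerned control replicate 5 of 12 days. In that library Adh6b was at 269 steps (89 to 136 in the other 4), Krt1 at 12469 (18920 to 21496), Krt5 at 37440 (43726 to 45935) and Rspo3 at 99 (80 to 81). Control replicate 1 of 12 days had Krt6b at 272 steps (76 to 96 in the others). P95H replicate 1 of 28 days, the library of lowest depth, had Srsf2 at 2597 steps (3355 to 3450 in the others).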

How the results depend on the processing

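Apol7a kept its call in 24 of 25 alternatives, with interactions of 2.27 to 3.12 and adjusted p from 3.53e-04 to 0.0666. RP23-392I13.15 kept it in 7 of 25, at 3.10 to 4.55. With the values as deposited, the interaction, 12-day, 28-day, shared and single-day counts were 75, 208, 632, 91 and 61, and with sample quality weights 30, 2329, 4763, 1511 and 13. Interaction and single-day counts were both 1 with median-ratio size factors, a mean above 1 step, a mean of at least 50 steps, or without both hair-high 12-day controls (added after seeing the data). With the controls of near mouse numbers the 28-day count was 1206 and the shared count 453.

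The replicate number within a day was also fitted as a block. The interaction and single-day counts were then 0 (1131 genes at an unadjusted p under 0.05 in limma), the 12-day count 434 and the shared count 265, and Apol7a was at 2.59 (adjusted p = 0.0666), its only alternative without a call. Of the keratin-associated proteins 29 then fell at 12 days and 42 had an unadjusted interaction p under 0.05, and of the hair shaft list 18 and 27, with none called in the interaction. Among the shared genes named, the block fit lost the 12-day calls of the rises Krt6b, Stfa2, Gsdmc, Sprr2a3, Sprr1b and Chil4. It also lost those of the falls Mrgprb3, Il22ra2, Adh6a, Adh6b and Rspo3. Deviations of same-numbered libraries correlated at 0.06 and 0.37 at 12 days and at -0.01, -0.04 and -0.04 at 28 days. The 2 P95H libraries of 12 days mirror each other around their mean, so the 12-day values are not independent. These values cannot settle whether same-numbered libraries share more than a number. No paired analysis was possible in the sorted set because its columns carry no replicate number.

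Leaving out each library in turn gave 1 to 7 interaction calls, 323 to 2366 at 12 days, 699 to 2722 at 28 days, 175 to 1020 shared, 1 to 5 single-day and, in the sorted set, 0 to 114. Of 800 refits of the 16 shared genes named, 39 lost the call and none changed sign. The cause of these shifts was not tested. With 2 P95H libraries at 12 days and 7.39 M estimated reads in 1 P95H library at 28 days, the precision is limited: the median half-width of the unadjusted 95% interval of the interaction was 0.47, and Cxcl10 at 2.61 was not called.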

Other observations

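Of 50 measured DNA replication genes, 1 (Rrm1) rose at 12 days and 16 at 28 days, among them Mcm2 (0.97), Mcm5 (1.06) and Ccne1 (1.01), with a median interaction of 0.17 (0.08 without 12-day control 5 or 28-day control 4, 0.88 with the values left unscaled) and none called. That count was 1 without 28-day control 4, 7 without control 1 and 10 without P95H replicate 2, and 7 rose at 12 days without 12-day control 5. Of all genes tested 3.96% rose at 12 days and 6.7% at 28 days, and the 12-day count of 1 in 50 was not above that share.

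Immediate early and AP-1 genes had 3 of 26 rising at 12 days and 12 at 28 days, with a median interaction of 0.19 and none called. That median was 0.09 without 12-day P95H replicate 1, 0.30 without replicate 2 and 0.91 with the values left unscaled, where 2 were called, and the 12-day count was 0 without replicate 2. Fos and Fosb, whose products form AP-1, rose at 28 days by 1.22 and 1.64 and were at -0.47 and -1.07, uncalled, at 12 days. The 28-day count was 4 without 28-day control 1 or 4 or P95H replicate 2, and 5 without control 2 or P95H replicate 4. Of all genes tested 3.96% rose at 12 days and 6.7% at 28 days.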
